A study of Drosophila melanogaster with 3 samples.

Results

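The genes described here are 9 heat shock and cognate chaperone genes of Drosophila melanogaster, namely Hsp22, Hsp23, Hsp26, Hsp27, Hsp83, Hsc70-3, Hsc70-4, Hsc70-5 and Hsf. They were taken by name from the gene models of genome Release 6 (dm6), and were 9 of 13968 protein-coding genes on the 7 chromosome arms. All peak summits in each gene and in the 5 kb to each side of it were collected. The libraries came from a transgenic line in which Lhr (Lethal hybrid rescue), a chromatin protein that partners Hmr and heterochromatin protein 1, carries an eGFP tag at its C-terminal end. Whole embryos of mixed sex, aged 0 to 14 h, were used, and the tag was pulled down with an antibody to GFP from chromatin sheared to 200 to 800 bp. The 3 libraries are biological replicates 1, 2 and 3 of this single group, so each one averages over all cell types of the embryo, and the labels name no heat treatment. The promoter that drives the tagged Lhr is not given in the sources used here.

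Heat shock proteins keep other proteins folded. The small heat shock proteins hold unfolding proteins in a soluble state, the Hsp70 and cognate Hsc70 proteins refold them at the cost of ATP, and the Hsp90 protein of the fly, Hsp83, matures kinases and receptors. Heat shock factor, the product of Hsf, is present in unstressed cells and binds arrays of short GAA and TTC units upstream of its targets on heating. Hsp22, Hsp23, Hsp26 and Hsp27 are known as heat-inducible genes that are also switched on in development, and they form a cluster at a single cytological region, the small heat shock gene cluster. Hsc70-3 (the BiP of the endoplasmic reticulum), Hsc70-4 (the main cytosolic cognate protein), Hsc70-5 (the mitochondrial one) and Hsf are known as constitutive genes. Hsp83 is abundant without heat and rises further with it, so it was placed in neither class.

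In dm6 the inducible genes lie side by side on arm 3L, with Hsp22 (FBgn0001223) at chr3L:9372931-9374964 on the plus strand, Hsp26 (FBgn0001225) at chr3L:9376418-9377427 on the minus strand, Hsp23 (FBgn0001224) at chr3L:9381882-9382765 on the plus strand and Hsp27 (FBgn0001226) at chr3L:9384063-9385694 on the plus strand. Hsp83 (FBgn0001233) lies elsewhere on the same arm, at chr3L:3192969-3197059 on the plus strand. The constitutive genes lie apart from each other, with Hsc70-3 (FBgn0001218) at chrX:11801696-11807117 on the minus strand and Hsc70-4 (FBgn0266599) at chr3R:15242687-15246614 on the plus strand, and the places of Hsc70-5 and Hsf are given with their values. The models have 1 start site each for Hsp23, Hsp27 and Hsf, 2 each for Hsp22, Hsp26, Hsp83 and Hsc70-5, 4 for Hsc70-3 and 6 for Hsc70-4.

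The stretches on which the results turn are shown here as read from the RefSeq sequence of Release 6, each on the gene's own strand. Capitals mark the searched words, and overlapping hits run together. These words were the paired heat shock units GAANNTTC and TTCNNGAA, the GAGA factor word GAGAG, the TATA box word TATAAA, the DRE word TATCGATA and the M1BP word GGTCACACT, all on both strands. The first pair are the 250 bases before the outermost starts of Hsp27 (chr3L:9383813-9384062, plus strand, IDR summit at base 88) and Hsc70-4 (chr3R:15242437-15242686, plus strand, IDR summit at base 112), the strongest promoters of each class.
Hsp27 upstream: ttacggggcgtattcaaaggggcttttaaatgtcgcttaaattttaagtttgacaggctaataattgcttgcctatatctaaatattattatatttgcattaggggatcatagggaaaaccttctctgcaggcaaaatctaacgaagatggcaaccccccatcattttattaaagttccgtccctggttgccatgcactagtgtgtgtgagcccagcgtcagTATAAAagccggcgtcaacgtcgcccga
Hsc70-4 upstream: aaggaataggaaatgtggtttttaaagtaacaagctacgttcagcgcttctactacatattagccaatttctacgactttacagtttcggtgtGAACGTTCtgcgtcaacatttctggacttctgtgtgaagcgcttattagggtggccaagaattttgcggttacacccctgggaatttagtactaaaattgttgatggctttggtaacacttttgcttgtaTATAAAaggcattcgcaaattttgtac
The next are 250 bases around the summit in the intron of Hsp83 (chr3L:3194137-3194386, plus strand, summit at base 126) and the 30 bases that hold the heat shock units between the start sites of Hsp83 (chr3L:3193137-3193166, plus strand, in the 5′ UTR of the longer transcript).
Hsp83 intron: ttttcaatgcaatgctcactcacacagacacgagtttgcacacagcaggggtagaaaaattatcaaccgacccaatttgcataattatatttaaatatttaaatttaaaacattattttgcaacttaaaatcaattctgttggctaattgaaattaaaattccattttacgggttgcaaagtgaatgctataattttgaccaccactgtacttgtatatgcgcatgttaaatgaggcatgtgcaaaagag
Hsp83 heat shock units: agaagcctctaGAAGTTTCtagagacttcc
For Hsc70-3, the 101 bases around the summit in its intron are shown (chrX:11806384-11806484, minus strand, summit at base 51), since its promoter call among the strongest peaks of a single library rests on this summit.
Hsc70-3 intron: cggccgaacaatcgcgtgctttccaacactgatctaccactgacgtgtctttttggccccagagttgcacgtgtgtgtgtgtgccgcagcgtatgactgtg
The last pair are the 250 bases before the outermost starts of Hsp26 (chr3L:9377428-9377677, minus strand) and Hsp23 (chr3L:9381632-9381881, plus strand), inducible genes without a summit in the IDR list at their promoters.
Hsp26 upstream: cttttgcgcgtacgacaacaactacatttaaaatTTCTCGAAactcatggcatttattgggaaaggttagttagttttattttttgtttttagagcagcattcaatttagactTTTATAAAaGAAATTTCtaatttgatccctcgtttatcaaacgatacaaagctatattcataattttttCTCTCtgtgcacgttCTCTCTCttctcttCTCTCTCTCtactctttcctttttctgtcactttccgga
Hsp23 upstream: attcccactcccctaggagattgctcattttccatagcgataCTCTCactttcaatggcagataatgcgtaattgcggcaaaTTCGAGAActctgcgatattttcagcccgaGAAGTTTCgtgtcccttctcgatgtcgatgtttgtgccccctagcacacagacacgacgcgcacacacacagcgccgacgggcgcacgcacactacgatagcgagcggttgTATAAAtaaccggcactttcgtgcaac

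The peak lists set the scale of every value. The IDR list, which the authors thresholded on the irreproducible discovery rate, held 5190 peaks, which are exactly the strongest entries of the combined list of 20761. The lists of the single libraries held 22598, 30000 and 18934 peaks in replicates 1, 2 and 3. The deposited signal, the authors' enrichment measure, has a scale of its own in each list, so a peak is given by its rank by signal within its list, with rank 1 the strongest. The lists differ in length, and ranks were not compared between them. A library was read at the depth of the IDR list through its 5190 strongest peaks, and then whole. The depth of sequencing is unknown from these files. No peak interval was identical between replicates 1 and 2 or between replicates 2 and 3, and 1 was identical between replicates 1 and 3.

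In the IDR list, 5 of the 9 genes had a summit within 500 bp of an annotated start site, which is called a promoter summit below. They were Hsp27, Hsp83, Hsc70-3, Hsc70-4 and Hsc70-5. Over all 13968 protein-coding genes 29.2% had one. The strongest promoter summit stood at Hsc70-4, followed by Hsp27, Hsp83 and Hsc70-5, while Hsc70-3 ranked far lower. Hsp22, Hsp23, Hsp26 and Hsf had none in the IDR list. The combined list added Hsp22, for 6 of 9 members against 45.5% of all genes.

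The 3 libraries gave similar counts but not the same genes. Among the 5190 strongest peaks of each library, 5 of 9 members had a promoter summit in replicate 1, where 26.6% of all genes had one. In replicate 2 it was 5 of 9 against 31.2%, and in replicate 3 it was 6 of 9 against 29.1%. The members' share was 59.3% ± 6.42 over the libraries, and that of all protein-coding genes was 28.9% ± 2.33 (SD, n = 3 libraries each). Hsp27, Hsp83, Hsc70-4 and Hsc70-5 were in all 3 libraries. Hsp26 was added only in replicate 1, Hsf only in replicate 2, and Hsp22 and Hsc70-3 only in replicate 3. The Hsp22 call in replicate 3 rests on a summit 485 bp past its outer start, close to the 500 bp limit. In the whole lists, 8, 9 and 6 of 9 members had a promoter summit in replicates 1, 2 and 3, against 42.6%, 54.5% and 45.2% of all genes. The 519 peaks in the upper 10% of the IDR list, a depth chosen after seeing the data, included promoter summits of Hsp27, Hsp83 and Hsc70-4, so of 3 of 9 members, against 3.55% of all genes. The members were chosen with earlier results known, so these shares are a description without a test.

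**Figure D1:**
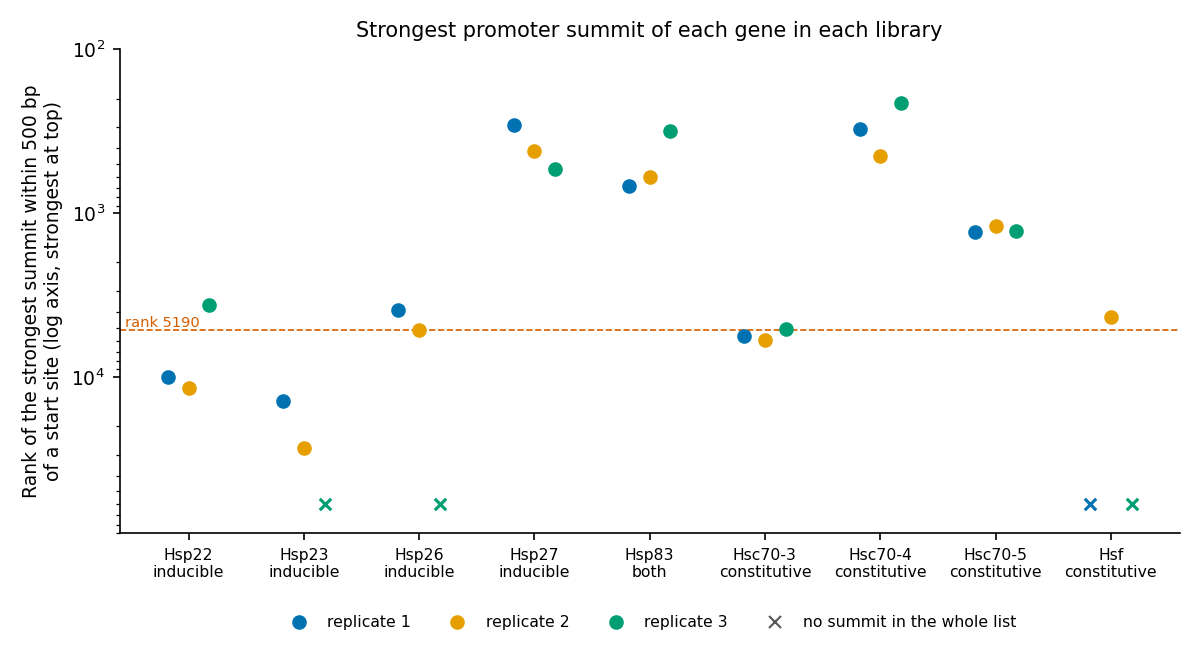
Rank of the strongest promoter summit (within 500 bp of a start site) of each of the 9 genes in each library, on a log axis with the strongest at the top; points are libraries, crosses mark a library whose whole list has no such summit, and the dashed line is rank 5190. The 3 points of Hsp27, Hsp83, Hsc70-4 and Hsc70-5 all sit above the line, between 212 and 1310, whereas Hsp23 and Hsp26 lack a point in replicate 3 and Hsf lacks one in replicates 1 and 3.

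Hsp27, which encodes a small heat shock protein found in the nucleus, was the only inducible gene with a promoter summit in the IDR list. The summit lay at chr3L:9383900, 163 bp upstream of its single start site, in intergenic sequence, at rank 395 of 5190. In the libraries it ranked 289 in replicate 1, 417 in replicate 2 and 538 in replicate 3, at 166, 154 and 133 bp upstream. All 3 libraries thus placed it within 30 bp of the IDR position and among their stronger peaks. The 100 bp to each side of the summit, most of them in the sequence of Hsp27 above, held none of the searched words. The TATA word in that sequence stood 28 bp upstream of the start.

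The other small heat shock genes had weaker or scattered summits. The IDR summit of Hsp22, whose product works in mitochondria, ranked 5091 of 5190. It lay at chr3L:9373461, in the long 5′ UTR of the gene, 530 bp past its outer start and 536 bp before its inner one, and so just outside the 500 bp limit. The same stretch is transcribed as part of the overlapping gene CG4456 on the same strand. This summit ranked 18732 in replicate 1, 5540 in replicate 2 and 3631 in replicate 3, so only replicate 3 held it among its 5190 strongest peaks. Replicate 3 placed it 485 bp past the outer start, just inside the limit, and the promoter call of Hsp22 among those peaks rests on it. Close to the outer start of Hsp22, weak summits ranked 10044, 11707 and 18066 in replicates 1, 2 and 3. They lay 183, 81 and 259 bp upstream of it. CG4456, listed under the older name Hsp67Bb, has a start at the same base as the outer start of Hsp22 and another further upstream. The summits of replicates 1 and 3 were 26 and 50 bp from that upstream start. Those of replicates 1, 2 and 3 were also 251, 353 and 175 bp upstream of the divergent small heat shock gene Hsp67Bc. None of these summits can be assigned to Hsp22 alone.

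Hsp26 and Hsp23 encode cytosolic small heat shock proteins, and neither had a promoter summit in the IDR or the combined list. At Hsp26, replicate 1 had a summit 149 bp upstream at rank 3899, and replicate 2 had summits 73 bp downstream of the inner start at rank 5200 and 111 bp upstream at rank 6771. Replicate 3 had none at Hsp26 in its whole list. Hsp26 was thus among the 5190 strongest peaks in replicate 1, just outside them in replicate 2 and not detected in replicate 3. At Hsp23, replicate 1 had a summit 413 bp into the gene at rank 14036 and replicate 2 had one 382 bp into it at rank 27268, both in the coding exon, and replicate 3 had none. These were among the weak entries of their lists.

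The 4 inducible genes lie within a single stretch, and their windows overlap. Merged, the windows cover 22.8 kb with 11 protein-coding genes in or across them, and they held 2 distinct IDR summits, those of Hsp27 and of Hsp22. The IDR summit in the window of Hsp23 is the one of Hsp27, and that in the window of Hsp26 is the one of Hsp22. Replicates 1, 2 and 3 had 6, 7 and 3 summits in the stretch. Across the cluster the promoter of Hsp27 held the strongest summit in each of the 3 libraries, within the top 1.28%, 1.39% and 2.84% of the lists of replicates 1, 2 and 3.

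**Figure D2:**
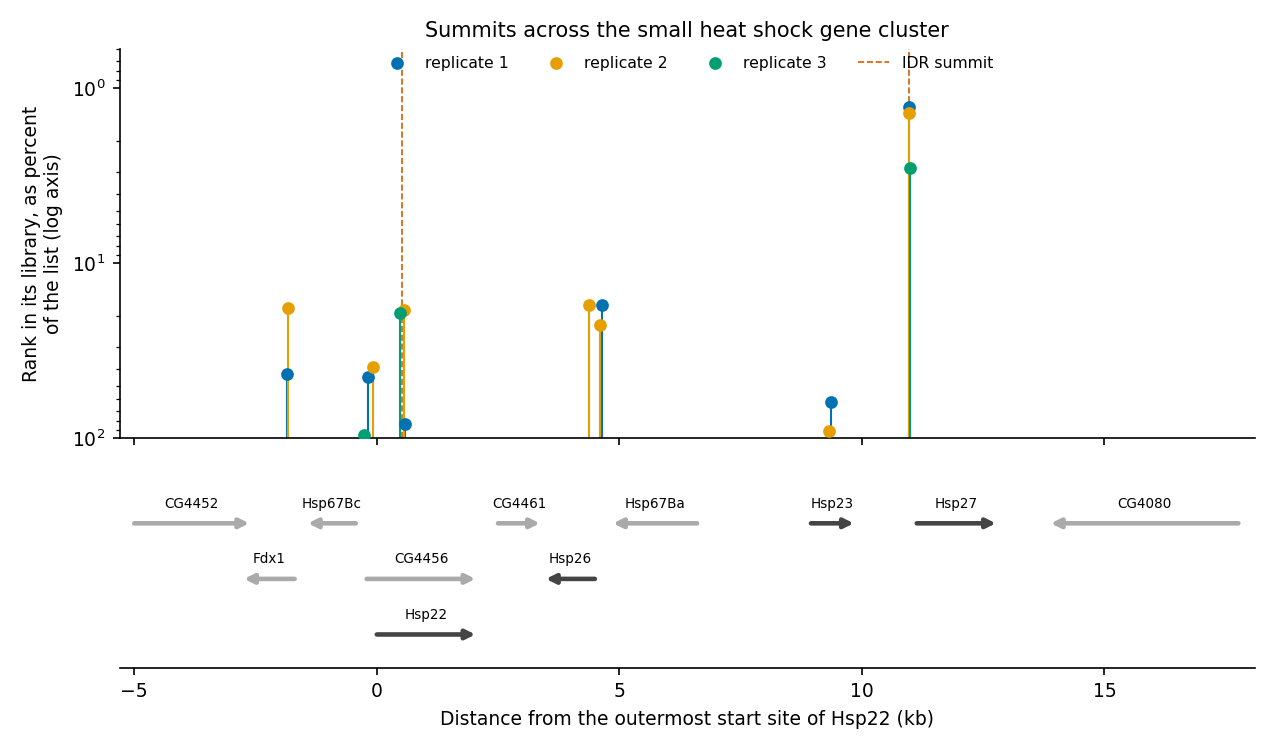
Summits across the small heat shock gene cluster by distance from the outermost start of Hsp22 (kb, horizontal) and rank as a percent of the library's list (vertical, log axis, strongest at the top), with IDR summits as dashed lines and gene models as arrows below (members dark, other genes grey). The 3 libraries meet near the top at Hsp27, the summits at Hsp22 sit lower in all 3, and those at Hsp26 and Hsp23 are missing from replicate 3.

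Hsp83 had 2 IDR summits in the gene. The promoter summit at chr3L:3193107 ranked 467 of 5190, and in the libraries 688, 599 and 317 in replicates 1, 2 and 3. It lay 138 bp past the outer start and 109 bp before the inner start, at a base annotated as 5′ UTR of the longer transcript. The libraries placed it within 7 bp of this position. The paired heat shock units GAANNTTC shown above stood 41 bp past this summit and 68 bp before the inner start. The second summit lay in an intron at chr3L:3194262, 1046 bp past the inner start and 1155 bp from the promoter summit. It ranked 1182 of 5190 in the IDR list, and 1065, 895 and 1687 in replicates 1, 2 and 3. In each library the promoter summit of Hsp83 was the stronger of the pair, and the intron sequence shown above held none of the searched words within 100 bp of the summit. A further IDR summit in the window belonged to the neighbouring genes gry and CG32276, 63 bp past the start of gry, and ranked 1317.

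Hsc70-4 had the strongest summit of the 9 genes, at chr3R:15242548, 139 bp upstream of its outermost start and at rank 279 of 5190. It ranked 305 in replicate 1, 451 in replicate 2 and 212 in replicate 3, within 12 bp of the IDR position. The same summit lay 312 bp upstream of tefu, the fly ATM kinase gene, whose start is 451 bp from that of Hsc70-4 and which runs the other way. The summit cannot be assigned to either gene alone. A GAANNTTC word began 18 bp before the summit, as shown above. A weaker IDR summit in the Hsc70-4 window lay 213 bp upstream of CG42404, at rank 4979.

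Hsc70-5 (FBgn0001220, chr2R:14252598-14256192, minus strand), which encodes the mitochondrial Hsp70, had a promoter summit 28 bp upstream of its outer start at rank 1206 of 5190. It ranked 1310, 1199 and 1294 in replicates 1, 2 and 3, although replicate 1 placed it 54 bp further upstream. A second IDR summit stood 208 bp away, 65 bp upstream of the divergent gene CG8531 and 236 bp upstream of Hsc70-5. That one ranked 3746 in the IDR list, 3136 in replicate 2 and 2313 in replicate 3, and had no counterpart within 100 bp in replicate 1, whose single summit stood between the positions of the pair.

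Hsc70-3, the gene of the endoplasmic reticulum protein BiP, carried 2 weak IDR summits 1174 bp apart. The upstream one lay 491 bp before the outermost start and ranked 3077 of 5190. In replicates 1, 2 and 3 it ranked 3133, 1753 and 5100, but stood 516, 502 and 540 bp from the start, just past the 500 bp limit. The other, at chrX:11806434 in an intron and 81 bp before an inner start, ranked 4767 in the IDR list and 5645, 5914 and 5113 in replicates 1, 2 and 3. Among the 5190 strongest peaks of each library, the promoter call of Hsc70-3 rests on the intron summit, which was among them in replicate 3 only. In the whole lists further weak summits lay within 500 bp of a start, 316 bp before the inner one at rank 6676 in replicate 1, and in replicate 2 at 283 bp before it, rank 17452, and 5 bp before another inner start, rank 22497. The upstream summit was among the strongest in all 3 libraries. The sequence around the intron summit, shown above, held none of the words. A further IDR summit in the window, at rank 5167, lay in the 3′ UTR of CkIIbeta, the regulatory subunit gene of casein kinase II.

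Hsf (FBgn0001222, chr2R:18130303-18134634, minus strand), the gene of heat shock factor itself, had no promoter summit in the IDR or the combined list. Replicate 2 had one 56 bp past its start at rank 4298 and another 147 bp upstream at rank 13921, and replicates 1 and 3 had none in their whole lists. Both IDR summits in the Hsf window lay beyond the end of the gene, at stau and Spn55B. The summit at stau, an RNA-binding protein gene, lay 89 bp upstream of it at rank 2646, and the one at Spn55B, a serpin gene, lay 279 bp upstream of it at rank 3737, 200 bp from the first.

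**Figure D3:**
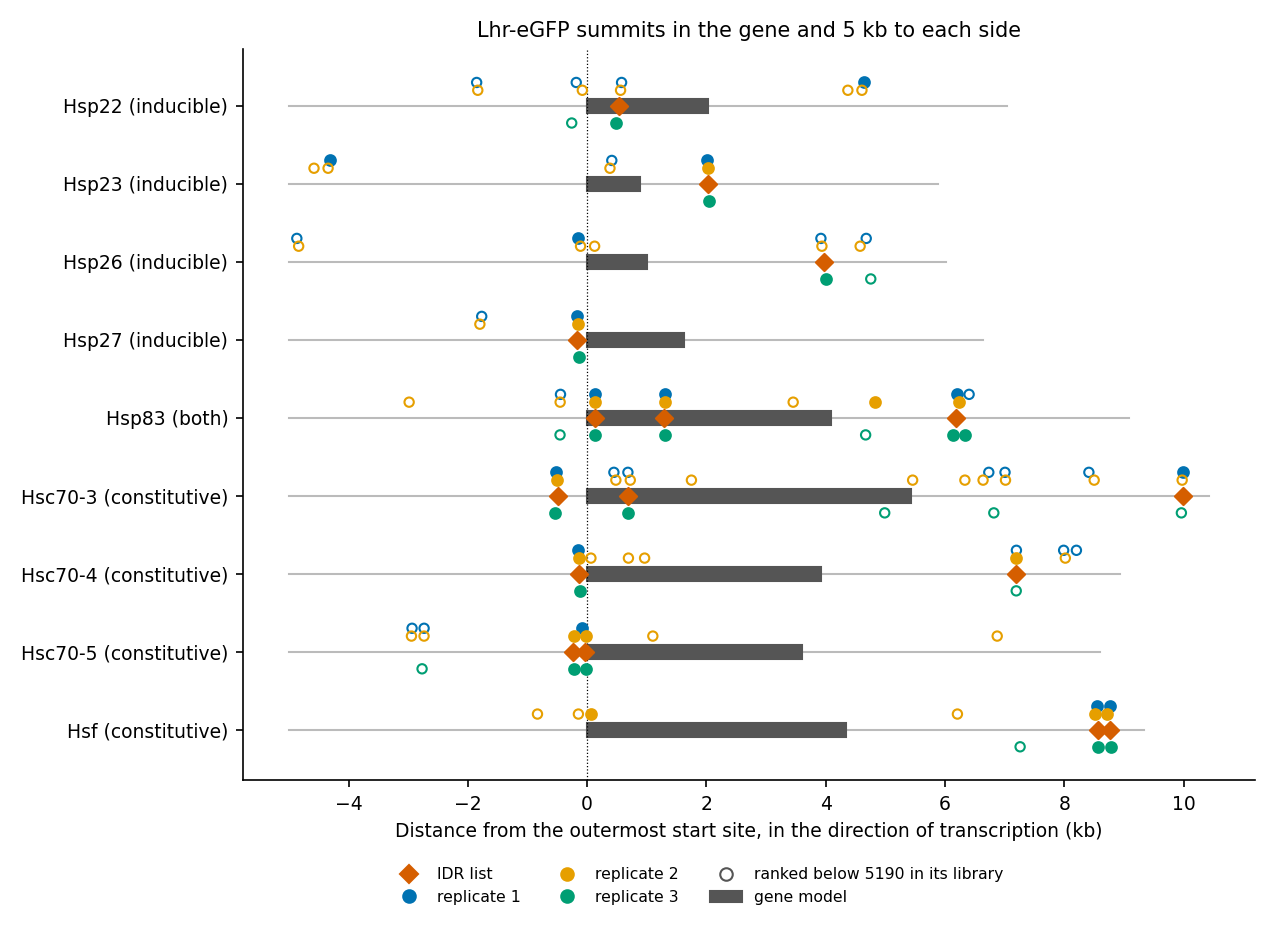
Summits in each gene and 5 kb to each side, by distance from the gene's outermost start in the direction of transcription (kb), with the gene model as a dark bar; diamonds are IDR summits, and circles above (replicates 1 and 2) and below (replicate 3) are library summits, open where they rank below 5190 in their library. IDR and library summits coincide at the starts of Hsp27, Hsp83, Hsc70-4 and Hsc70-5, and the IDR summits in the Hsp23, Hsp26 and Hsf windows lie away from the gene's own start.

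Inducible genes were then set against constitutive ones. In the IDR list 1 of 4 inducible genes and 3 of 4 constitutive genes had a promoter summit, beside 29.2% of all genes. The inducible share was 50%, 25% and 50% in replicates 1, 2 and 3, and the constitutive share 50%, 75% and 75%. The means were 41.7% ± 14.4 for inducible and 66.7% ± 14.4 for constitutive genes (SD, n = 3 libraries each). The difference, inducible minus constitutive, was -25 ± 25 percentage points (SD, n = 3). It was 0 in replicate 1, -50 in replicate 2 and -25 in replicate 3. A two-sided exact sign-flip permutation test over the libraries gave p = 0.5. With 3 libraries its p cannot be below 0.25, and with a difference of 0 in replicate 1 it cannot be below 0.5. The test therefore cannot decide whether the classes differ. The libraries measure the same genes, so the test covers variation between libraries and not between genes. The difference was no larger than its SD over the libraries. The models of Hsc70-3 and Hsc70-4 have 4 and 6 start sites, those of the inducible genes 1 or 2. With the outermost start of each gene only, the difference was -16.7 points, while the IDR counts were still 1 of 4 and 3 of 4. Each class holds 4 genes, so 1 gene is 25 points, and the strongest promoter summits of the classes ranked 289, 417 and 538 for Hsp27 and 305, 451 and 212 for Hsc70-4 in replicates 1, 2 and 3. Hsp27 ranked higher in replicates 1 and 2, and Hsc70-4 in replicate 3.

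**Figure D4:**
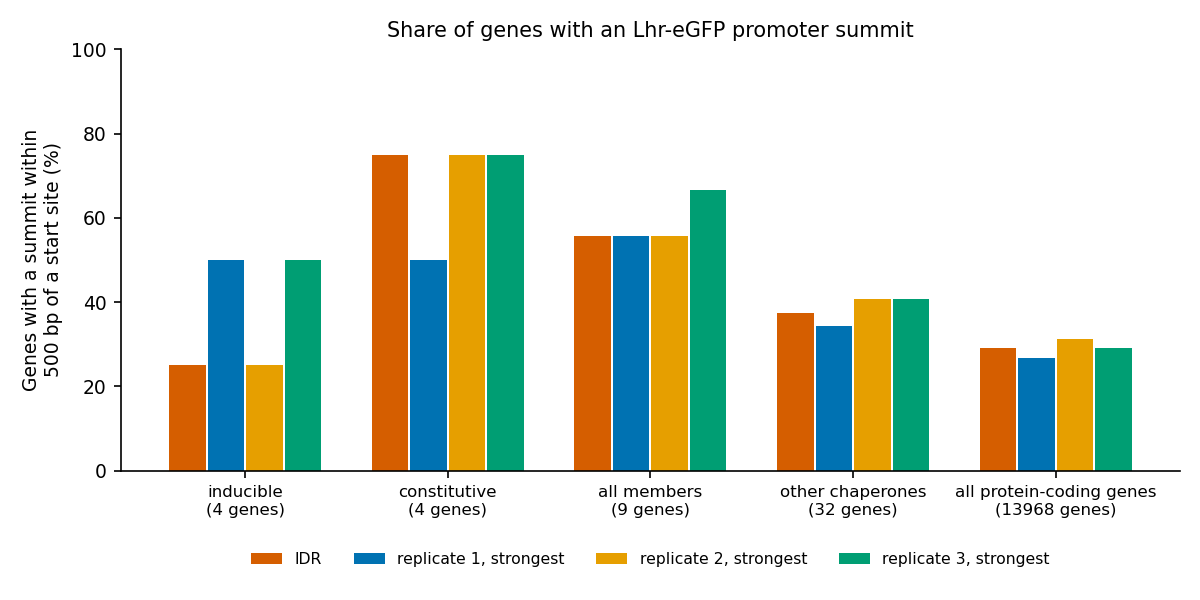
Percent of genes with a promoter summit in the IDR list and among the 5190 strongest peaks of each library, for inducible, constitutive and all 9 genes, other chaperone genes and all protein-coding genes. Each bar is 1 list; the inducible bars lie between 25% and 50%, the constitutive ones between 50% and 75%, and those of all genes between 26.6% and 31.2%.

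Over the wider windows, all 9 genes had at least 1 IDR summit in the gene and 5 kb to each side, against 57.3% of all protein-coding genes. The merged windows of the 9 genes held 14 distinct IDR summits in 94.1 kb, or 1.49 per 10 kb, against 0.439 per 10 kb over the merged windows of all protein-coding genes. Those of all genes span 112565 kb and were not matched to the members for gene length, so the densities are not like for like. The inducible stretch held 2 of the 14, the constitutive windows 9 in 57.3 kb, and Hsp83 the other 3 in its 14.1 kb. Of the 14 summits, 5 belonged to the starts of other genes named above, gry, stau, Spn55B, CG42404 and CG8531, and 1 to CkIIbeta. In the whole library lists the window of each gene held between 1 and 10 summits. Of the 14, 9 were matched within 100 bp by the strongest peaks of all 3 libraries. The window counts describe the neighbourhoods and not the 9 genes alone.

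The promoter summits of the 5 genes were set beside those of all bound genes as a description, without a test. For each gene the position was taken from the annotated start nearest to a summit. The median position of the 5 was 109 bp upstream and 5 of 5 were upstream. The 4085 bound protein-coding genes had a median of 98 bp upstream with 91.9% upstream. Counted from the outermost start, the Hsp83 summit lay 138 bp downstream and the Hsc70-3 intron summit 683 bp downstream. The median rank of the 5 was 467 and that of all bound genes 2320. A start running the other way within 1000 bp was present at 3 of the 5 bound members (Hsc70-4 with tefu at 451 bp, Hsc70-5 with CG8531 at 301 bp and Hsp83 with CG14965 at 478 bp) and at 2 of the 4 others (Hsf with Pcl at 792 bp and Hsp22 with Hsp67Bc at 434 bp). Among all genes it was 61.4% of bound and 24.3% of other protein-coding genes. Hsp27 and Hsc70-3 were bound without such a neighbour.

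Sequence words were present at bound and unbound members. In the 250 bases before to 50 bases after the outermost start, GAANNTTC was present at Hsp23, Hsp26 and Hsc70-4, and at 9.37% of all 13968 promoters of the same length. TTCNNGAA was present at Hsp23, Hsp26 and Hsc70-3, and at 7.68% of promoters. Hsp23 and Hsp26, which had both kinds of unit, had no promoter summit in the IDR list. The units of Hsp83 before its inner start lie outside this window. The stretches before the inner starts of Hsp22 and Hsc70-3 also lie outside it and were not searched as promoters. An element of 3 alternating units was in none of the 9 promoters and in 0.430% of all. The promoter search covered exact words in this window only. It cannot show whether a member has units further away or in inexact form. GAGAG was present at Hsp22, Hsp23, Hsp26 and Hsc70-3 and in 29.7% of promoters, with 6 hits at Hsp26, some of them overlapping. TATAAA was present at 7 members, all but Hsc70-3 and Hsf, and in 45.8% of promoters. From the outermost start it stood 27 bp upstream at Hsp23 and Hsc70-4 and 28 bp upstream at Hsp27. The nearest hit was 249 bp upstream at Hsp22, 148 at Hsp83 and 55 at Hsc70-5, and 24 bp downstream at Hsp26. TATCGATA was present at Hsp83 and in 9.36% of promoters, GGTCACACT at none of the members and in 6.04%. The initiator word TCAGTT, searched on the sense strand only, was present at Hsp22, Hsp23 and Hsc70-3 and in 17.9% of promoters.

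Within 100 bp of the IDR summits, GAANNTTC was in 5.55% of the 5190 windows and at Hsp83, Hsc70-4 and the CG8531 summit next to Hsc70-5. TATAAA was in 33.0% of windows and at the summits of Hsp83 and Hsc70-5. GAGAG was in 19.3% of windows and at the upstream summit of Hsc70-3, with 4 hits, some of them overlapping. GGTCACACT was in 6.59% of windows and at the Spn55B summit in the Hsf window. TATCGATA was in 7.21%, TTCNNGAA in 5.53% and the 3-unit element in 0.231% of windows, and none of these was at the summits of Hsp27, Hsp83, Hsc70-4 or Hsc70-5.

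A list of other chaperone and cochaperone genes was read the same way, of which 32 genes were matched. In the IDR list 12 of 32 (37.5%) had a promoter summit, against 29.2% of all genes, and over the libraries the share was 38.5% ± 3.61 (SD, n = 3). Calr, the lectin chaperone calreticulin, had a summit 167 bp upstream at rank 367, ERp60, a disulfide isomerase, one 51 bp upstream at rank 686, and Cnx99A, calnexin, one 294 bp upstream at rank 2305. Of the Hsp90 cochaperones, p23 had a summit 43 bp upstream at rank 434 and Stip1 one 36 bp upstream at rank 3381. The DnaJ-type genes Droj2, mrj and DnaJ-1 ranked 1531, 2145 and 4279. The mitochondrial genes Hsp60A, Trap1 and mge, the last a subunit of the import receptor, ranked 3424, 4975 and 4249, and stv, a BAG-type cochaperone, ranked 3294. Among those without a promoter summit in the IDR list were Cdc37, CG4456, Gp93, HIP, Hsc70-1 and Hsc70-2. Of these, Cdc37 had one among the strongest peaks of replicate 2 (rank 2163), Gp93 in replicate 1 (rank 4309) and CG4456 in replicate 3 (rank 3631). CG4456, Gp93 and HIP also had one in the combined list. Hsc70-1 and Hsc70-2 had none in any list. The 6 near-identical Hsp70 copies had no promoter summit in the IDR list, but mapping can split or drop reads between such copies, so their values are uncertain.

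The gene most like each bound member was sought by the rank percent of the summit nearest to a start in each whole library list, over 4964 genes with a promoter summit in all 3. Hsp27, at 1.28%, 1.39% and 2.84% of the lists of replicates 1, 2 and 3, was closest to the receptor gene Toll-7, at 1.27%, 1.38% and 2.64%. Hsp83 was closest to CG4743 (mean difference 0.120 points) and Hsc70-5 to the ribosomal protein gene RpL18 (0.184 points). For Hsc70-4 and Hsc70-3 replicate 2 had an additional weak summit nearer to a start, at 53.6% and 75.0% of its list, and this weak summit entered the comparison. CG40191 was then closest to Hsc70-4 (0.359 points) and Rga to Hsc70-3 (1.67 points).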

How the data were processed

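Per the labels and the text listings, the authors called peaks per library against 1 control alignment shared by all 3, and derived a combined list from the 3 alignments, then thresholded on the irreproducible discovery rate. Which aligner, caller, versions and threshold were used is not given in the sources used here. The deposited signal ranks peaks within a list, the deposited −log10 q-value was read but not used for ranking, and the deposited summit offsets gave positions (other values, in bp). The lists for assembly dm3 and the control library were not analysed here. Summits of the dm6 lists were placed against Ensembl release 115 gene models, and sequences were read from the RefSeq Release 6 genome, with Python 3.11.15, pandas 2.3.3, numpy 2.4.6 and matplotlib 3.10.9. A further sequence is not reported here. The counting steps were checked on simulated data.

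The 9 genes and the lists were chosen with earlier results of these data known. Genes named are the 9, the gene nearest to each IDR summit in their windows, the bound and up to 6 unbound other chaperones in alphabetical order, and the gene most similar in rank to each bound member. Of 36 chaperone names listed, 32 genes were matched, after older symbols and duplicates. The test between classes was an exact sign-flip permutation test over the libraries. Depth is unknown, so no interval or floor is given.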

Additional observations from a re-analysis of the deposited data

How the results depend on the processing

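No paired analysis was possible because the series has a single group. The count of 5 members with a promoter summit was within 1.5 times of 5 under 9 of 10 alternatives and was 3 in the upper 10 percent of the IDR list, an alternative chosen after seeing the data (3.55% of all genes), which also lowered the constitutive count to 1, the other chaperones to 2 and the distinct summits in the windows to 3. The inducible count was 2 of 4 within 1000 bp, where 32.2% of all genes had a summit, and 2 of 4 in the combined list (45.5% of all genes), both adding Hsp22. In the upper 50 percent of the IDR list the other chaperones numbered 6 of 32, against 17.2% of all genes, and the distinct summits 6. The distinct summits, 14 as reported, were 9 with 2 kb to each side, 26 in the combined list, 9 among IDR peaks shared by all 3 libraries, and 9 to 10 with 1 library left out. Leaving out 1 library moved the difference between inducible and constitutive genes to between -37.5 and -12.5 points, and in the whole lists it was 0 (exact p = 1). Under the remaining alternatives it stayed negative. The exact sign-flip p was 0.25 within 1000 bp (-41.7 points), in the upper 50 percent (-25) and with Hsp83 counted as constitutive (-31.7). It was higher under the others. With 3 libraries it cannot be lower than 0.25. The lowest possible p is higher with 1 library left out, and where the difference is 0 in a library. These p-values therefore do not show how stable the difference is. The unknown depth limits every statement of absence to the deposited lists, and replicate 2 holds exactly 30000 peaks.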
